A study of Mus musculus with 10 samples.

Results

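The genes described here are 49 genes of mitosis and of the passage from G2 into mitosis (G2/M), chosen by function and matched by symbol to the table of gene counts through the GENCODE M21 annotation of the mouse genome (GRCm38). All 49 were found among the 18381 genes of the table, and all 49 passed the filter on low counts that left 14504 genes to be tested. The counts come from first lower molars of wild type C57BL/6JOlaHsd mouse embryos, dissected at embryonic day 14 (E14). The teeth were kept for 6 h in hanging drop culture, in which an explant grows in a drop of medium. From each of 5 embryos, numbered 1, 2, 3, 4 and 6, the tooth of one side received mouse recombinant insulin-like growth factor 1 (IGF1) at 750 ng/ml, and the tooth of the other side received the same volume of the vehicle, phosphate-buffered saline with bovine serum albumin. There were thus 5 IGF1 teeth and 5 control teeth, each sequenced on its own as total RNA, with left and right sides balanced. The comparison asks how the RNA of the cell division machinery differed between the teeth of a pair.

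A cell that has copied its DNA enters mitosis when cyclin B binds the kinase Cdk1 and the Cdc25 phosphatases remove the phosphates that hold Cdk1 inactive. Chromosomes are then condensed, held at their kinetochores by spindle microtubules, checked for attachment, pulled apart after the anaphase-promoting complex has marked cyclin B and securin for destruction, and parted into daughter cells by cytokinesis. Most of the genes that encode this machinery are transcribed late in the cycle and are held silent in G1 and in resting cells. Their promoters often carry a CHR element (cell cycle genes homology region), which is bound by the DREAM and MuvB complexes, together with CCAAT boxes, which are bound by NF-Y. Genes of S phase, in contrast, are switched on earlier and often carry sites for E2F factors. In the E14 molar, at the cap stage, the epithelium grows around the dental mesenchyme while the cells of the enamel knot have left the cycle. IGF1 binds a receptor tyrosine kinase and is known to favour growth and entry into the cycle.

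The promoters of the genes were searched for these letters. RefSeq promoter windows of GRCm38.p6, each from 250 bases before to 50 bases after an annotated start, were at hand for 41 of the 49 genes, in 43 windows because 2 genes have 2 starts. The genes Ccna2, Cdc25c, Aurkb, Incenp, Tpx2, Dlgap5, Kif20a and Smc4 had none. The letters searched on both strands were TTTGAA and TTCGAA for the CHR, CCAAT for the NF-Y box, and TTTCCCGC, TTTCGCGC, TTTGCCGC and TTTGGCGC for E2F. They were chosen after the expression values had been seen. CHR letters were in 35 of the 43 windows (81.4%), against 14.4% of the 13694 windows of genes tested and 19.2% of all 32851 windows. CCAAT was in 33 of the 43 windows (76.7%), against 37.5% of the windows of genes tested and 37.4% of all windows. Both were present in 30 windows (69.8%), against 5.90% of the windows of genes tested and 7.52% of all windows, and in 1 of them the letters of the 2 motifs overlap. E2F letters were in 3 of the 43 windows (6.98%), against 3.76% of the windows of genes tested and 2.26% of all windows. A match of letters is a description of the window and not a measured binding site.

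The following stretches show these letters. Those of Cdk1, Top2a, Mki67 and Ccnb1, genes used throughout as landmarks of G2 and mitosis, are the 120 bases before the RefSeq start. Capitals mark CHR and CCAAT letters on either strand. The stretches lie at chr10:69352913-69353032, chr11:99024190-99024309, chr7:135716380-135716499 and chr13:100786487-100786606, all on the reverse strand and printed 5′ to 3′ of the gene. The gene coordinates given further below are those of GENCODE, whose start can differ from that of RefSeq. Parts of the stretches of Cdk1 and Ccnb1 lie within the gene as drawn by GENCODE.
Cdk1: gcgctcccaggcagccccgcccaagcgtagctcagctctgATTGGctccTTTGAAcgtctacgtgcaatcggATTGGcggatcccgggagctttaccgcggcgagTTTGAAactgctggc
Top2a: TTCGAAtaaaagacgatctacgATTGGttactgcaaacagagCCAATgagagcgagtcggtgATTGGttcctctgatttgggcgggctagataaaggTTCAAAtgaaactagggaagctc
Mki67: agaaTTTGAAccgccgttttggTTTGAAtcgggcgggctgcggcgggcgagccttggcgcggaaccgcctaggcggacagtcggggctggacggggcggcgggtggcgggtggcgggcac
Ccnb1: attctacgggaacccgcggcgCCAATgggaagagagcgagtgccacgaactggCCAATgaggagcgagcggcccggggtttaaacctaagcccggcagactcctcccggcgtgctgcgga
Cdk1 and Top2a hold both kinds of letters. In the stretch of Mki67 there are CHR letters but no CCAAT. The window of Mki67 does hold CCAAT letters further upstream, with first bases at -188, -166 and -141. Ccnb1 holds CCAAT boxes, but its whole window has neither TTTGAA nor TTCGAA on either strand. These CHR letters are also absent from the windows of Birc5, Cenpe, Mad2l1, Nek2, Nuf2, Nusap1 and Pttg1. Other letters for the CHR were not searched, so a CHR of another form could be present in these windows.

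For Kif23 and Cenpa, which were called lower with IGF1, 30 bases around the CHR letters are shown, at chr9:61946780-61946809 on the reverse strand and chr5:30666890-30666919 on the forward strand.
Kif23: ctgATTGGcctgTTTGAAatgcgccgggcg
Cenpa: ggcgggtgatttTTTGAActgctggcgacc
For comparison, the 120 bases before the RefSeq starts of Hells, a chromatin remodeller, and Mcm6, a subunit of the replicative helicase, are shown. Their E2F letters are in capitals. They were picked as the S phase genes with the lowest adjusted p among those called higher with IGF1 that hold E2F letters in this stretch, and they lie at chr19:38930870-38930989 on the forward strand and chr1:128359706-128359825 on the reverse strand.
Hells: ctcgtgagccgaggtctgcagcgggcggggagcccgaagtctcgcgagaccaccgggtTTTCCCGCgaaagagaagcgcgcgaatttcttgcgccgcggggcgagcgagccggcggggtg
Mcm6: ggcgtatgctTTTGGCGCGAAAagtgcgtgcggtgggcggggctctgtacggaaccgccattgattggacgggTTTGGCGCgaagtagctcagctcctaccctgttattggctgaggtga

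For comparison lists, windows were at hand for part of the genes. Of 56 windows of 46 of the 57 S phase genes described below, 33.9% held E2F letters, 19.6% CHR letters and 55.4% CCAAT. In 118 windows of 102 of the 125 further mitosis genes, CHR letters were in 41.5%, CCAAT in 57.6% and E2F letters in 10.2%.

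**Figure D1:**
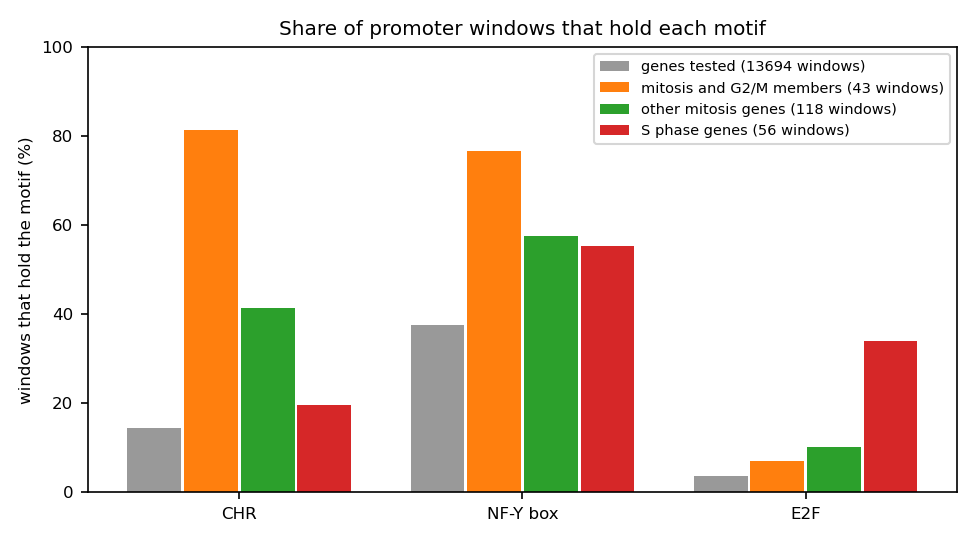
Share of promoter windows (vertical axis, %) that hold CHR, CCAAT (NF-Y box) or E2F letters on either strand, for genes tested (grey), the 49 mitosis and G2/M genes (orange), further mitosis genes (green) and S phase genes (red). CHR letters are in 81.4% of the windows of the mitosis and G2/M genes and 19.6% of those of the S phase genes, and E2F letters in 6.98% and 33.9%.

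After 6 h, few of the mitosis and G2/M genes were called as different between the IGF1 and control teeth of a pair. Of the 49 genes, 1 was called higher with IGF1 (Aurkb), 2 were called lower (Cenpa and Kif23) and 46 were not called, by edgeR's quasi-likelihood test with embryo as a block and Benjamini-Hochberg adjustment over all genes tested at an adjusted p under 0.05. The share called was 6.12%, against 11.5% of all genes tested. The higher call is 1 gene beside 6.72% of all genes called higher, and the lower calls are 2 genes beside 4.76% called lower. The fitted log2 fold changes (IGF1 over control) had a median of 0.00 over the 49 genes, with quartiles of -0.08 and 0.10 and a range of -0.34 to 0.37. Over all genes tested the median was 0.00 and the quartiles were -0.15 and 0.16. There were 25 genes above 0 and 24 below. The p-values here set the change against how much the difference within a pair of teeth varied over 5 embryos. A gene that was not called is therefore described by its interval. The 95% interval of the log2 fold change lay wholly within -0.5 and 0.5 for 46 of the 49 genes (93.9%), against 58.0% of all genes tested. The median SE was 0.078 against 0.112 over all genes tested, and the 49 genes had 24 to 11604 counts per tooth. Before adjustment, 10 of the 49 genes had a p under 0.05, against 26.5% of all genes tested. RNA was taken from whole teeth, so that a change in the number of dividing cells and a change in RNA per dividing cell cannot be told apart.

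**Figure D2:**
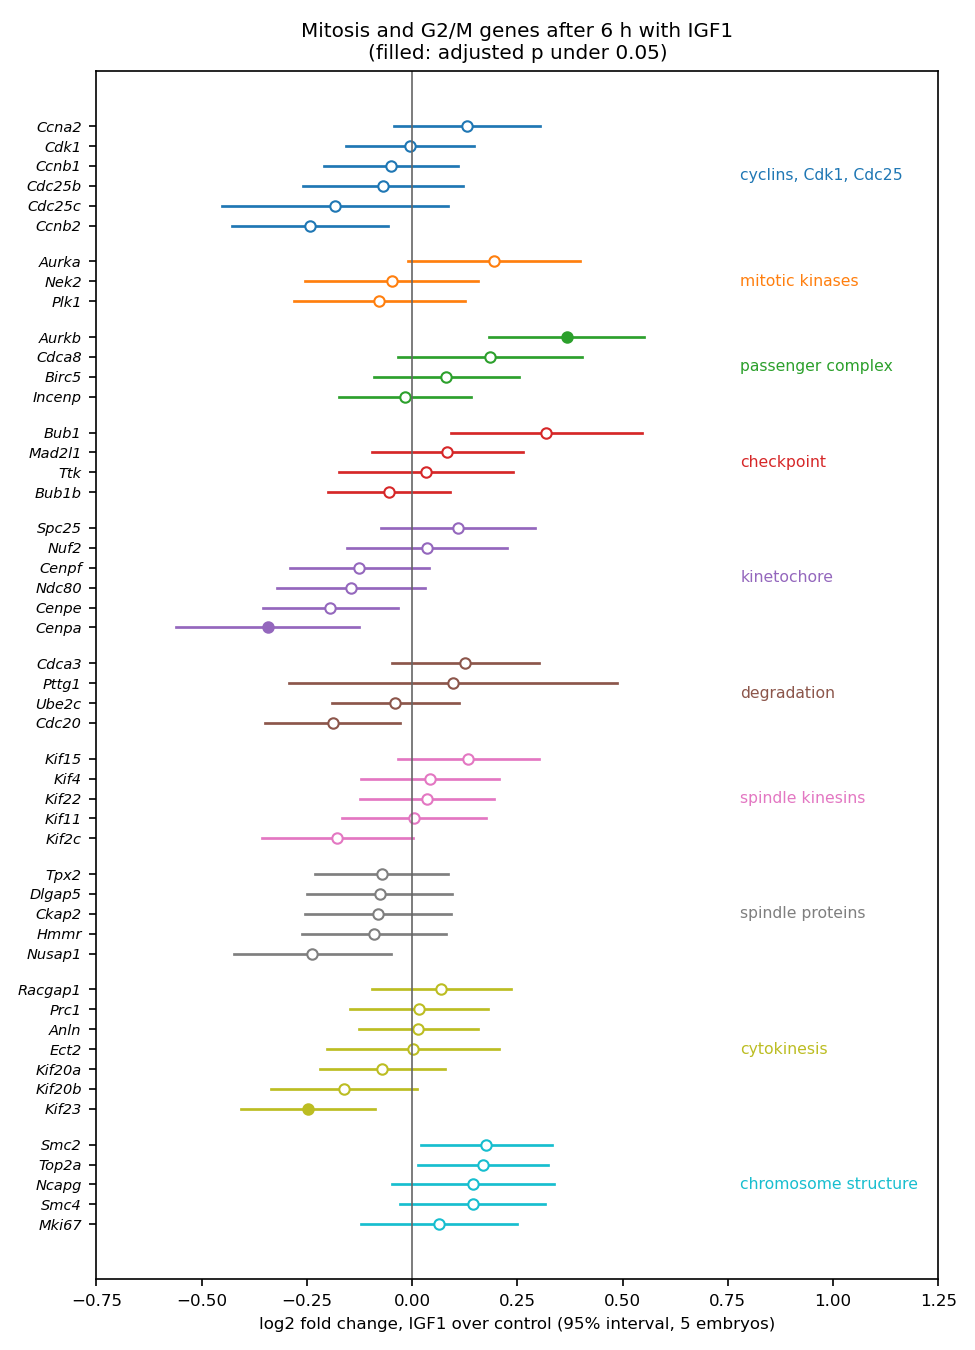
Log2 fold change of each of the 49 mitosis and G2/M genes (horizontal axis, IGF1 over control) with its 95% interval from 5 embryos, grouped by role. Filled points are the 3 genes with an adjusted p under 0.05. Aurkb at 0.37 is the highest, Cenpa at -0.34 is the lowest, and most intervals span 0.

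Levels are given below as CPM, the count of a gene relative to the total of its library scaled by TMM, with the teeth of embryos 1, 2, 3, 4 and 6 always in that order. Per kb of exon, the highest levels in the control teeth were those of Mki67 at 122 CPM per kb and Top2a at 71.4, followed by Ccnb2 at 42.9 and Smc4 at 40.7. The lowest were those of Cdc25c at 6.70, Nek2 at 6.54 and Pttg1 at 4.04 CPM per kb. Markers of dividing cells were thus readily measured in every tooth.

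Among the regulators of entry into mitosis (Ccna2, Ccnb1, Ccnb2, Cdk1, Cdc25b and Cdc25c), 0 of 6 were called and 1 had an unadjusted p under 0.05. Their median log2 fold change was -0.06, with 1 gene above 0 and 5 below. Cdk1, the kinase that drives mitosis (chr10:69335146-69352938, reverse strand), had 100, 105, 107, 122 and 121 CPM in the control teeth and 102, 106, 111, 107 and 127 in the IGF1 teeth. The groups overlapped almost entirely, and the log2 fold change was -0.00 ± 0.07 (SE), with a 95% interval from -0.16 to 0.15. Ccnb1, which encodes its partner cyclin B1 (chr13:100778650-100786570, reverse strand), had 130.2, 145, 144, 141 and 143 CPM without and 124, 120.4, 145, 135 and 156 CPM with IGF1. The IGF1 tooth was lower in embryos 1, 2 and 4 and higher in embryos 3 and 6. Its log2 fold change was -0.05 ± 0.07. Ccnb2, for cyclin B2 (chr9:70407692-70421547, reverse strand), had 72.1, 65.2, 59.1, 61.8 and 70.1 CPM in control teeth and 53.9, 49.6, 60.3, 51.5 and 61.1 in IGF1 teeth. It was lower with IGF1 in 4 of 5 embryos, embryo 3 being the exception, and the groups overlapped. The log2 fold change of -0.24 ± 0.08 missed the threshold with an adjusted p of 0.0903 in edgeR. Ccna2, for cyclin A2, which acts from S phase into early mitosis (chr3:36564865-36572150, reverse strand), had 122, 142, 124, 117 and 145 CPM in control and 134, 127, 157, 131 and 161 CPM in IGF1 teeth. The IGF1 tooth was above its partner in 4 of 5 embryos, at a log2 fold change of 0.13 ± 0.08. This value was 0.07 without embryo 3 and 0.20 without embryo 2. Cdc25c, a phosphatase that activates Cdk1, had 38.8, 31.7, 29.5, 27.5 and 37.3 CPM in control and 25.6, 27.9, 35.1, 26.5 and 27.6 CPM in IGF1 teeth, so that the tooth of embryo 3 stood above the other IGF1 teeth. Its log2 fold change was -0.18 ± 0.12, and it was -0.30 without embryo 3 and -0.10 without embryo 1. Named pseudogenes of Ccnb1 and Ccnb2 exist. The genes Exosc9 and Spef1 overlap Ccna2 and Cdc25b, and Cdc25c also overlaps a protein-coding gene. The estimated counts of these members can therefore include reads of shared sequence.

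None of the 3 mitotic kinases Plk1, Aurka and Nek2 was called, with a median log2 fold change of -0.05. Plk1, which acts at centrosomes, kinetochores and the midzone (chr7:122159439-122169873, forward strand), had 50.5, 47.9, 58.8, 61.1 and 55.0 CPM in the control teeth and 55.9, 41.0, 46.0, 59.1 and 60.4 in the IGF1 teeth. Its log2 fold change was -0.08 ± 0.09, with the IGF1 tooth higher in 2 of 5 embryos. The value was -0.01 without embryo 3 and -0.14 without embryo 6. Aurka, the Aurora kinase of the spindle poles (chr2:172356190-172370535, reverse strand), had 41.6, 34.3, 37.8, 42.0 and 43.3 CPM in the control teeth and 39.7, 48.6, 43.6, 44.0 and 50.1 CPM in the IGF1 teeth. It was higher in 4 of 5 embryos, but the log2 fold change of 0.20 ± 0.09 was not called (adjusted p = 0.212, edgeR), and it was 0.12 without embryo 2.

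Aurkb (ENSMUSG00000020897, chr11:69045647-69051664, forward strand) was the only one of the 49 genes called higher. It encodes the kinase of the chromosomal passenger complex, which corrects faulty attachments at centromeres and then acts in cytokinesis. Its control teeth had 47.1, 37.0, 42.3, 49.5 and 48.3 CPM, and its IGF1 teeth had 58.5, 57.2, 52.9, 56.3 and 63.0. Every IGF1 tooth lay above every control tooth, which was the case for 4.21% of all genes tested. Groups that did not overlap, in either direction, were found for 2 of the 49 genes (Aurkb and Kif23) and for 7.25% of all genes tested. The means were 44.8 ± 5.18 CPM (SD, n = 5) and 57.6 ± 3.65 (SD, n = 5), a log2 fold change of 0.37 ± 0.08 with a 95% interval from 0.18 to 0.55 and an adjusted p of 0.0173 in edgeR. The call was kept in 9 of 11 alternative fits and lost without embryo 2 (adjusted p = 0.0572) and without embryo 6 (adjusted p = 0.0658), with a range of 0.0123 to 0.0658 over all 11 fits by edgeR, DESeq2 and limma. The other 3 subunits of the complex were not called, and the median over the 4 was 0.13. Cdca8, for borealin (chr4:124918465-124939311, reverse strand), had 59.4, 44.7, 52.1, 48.9 and 53.5 CPM in control teeth and 48.1, 55.7, 57.6, 60.1 and 69.5 CPM in IGF1 teeth. It was higher in the IGF1 tooth of 4 embryos and lower in that of embryo 1, at a log2 fold change of 0.18 ± 0.10. Without embryo 1 the value was 0.28, and without embryo 6 it was 0.13. Birc5, for survivin, had a log2 fold change of 0.08 ± 0.08 and Incenp, the scaffold of the complex, -0.02 ± 0.07.

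Of the 4 spindle checkpoint genes (Bub1, Bub1b, Mad2l1 and Ttk), which delay anaphase until all chromosomes are attached, 0 were called. Bub1 (chr2:127801122-127831865, reverse strand), a kinase that recruits checkpoint proteins to kinetochores, had 57.7, 80.5, 70.6, 73.5 and 85.4 CPM in control teeth and 70.3, 104, 120.3, 78.6 and 88.7 CPM in IGF1 teeth. The IGF1 tooth was higher in all 5 embryos, most in embryo 3, although the groups overlapped. The means were 73.5 ± 10.6 and 92.3 ± 20.0 CPM (SD, n = 5), and the log2 fold change of 0.32 ± 0.10 had an adjusted p of 0.0723 in edgeR. Of 11 alternative fits, 1 called Bub1, with at least 10 counts required in every tooth (edgeR adjusted p = 0.0490). Without embryo 3 the log2 fold change was 0.19 (edgeR adjusted p = 0.186), and without the embryo block the adjusted p was 0.222. Mad2l1, the inhibitor of Cdc20 (chr6:66535390-66547220, forward strand), had 60.1, 76.8, 68.3, 60.8 and 90.6 CPM in control and 67.1, 70.4, 79.0, 72.7 and 86.8 CPM in IGF1 teeth. It was higher in 3 of 5 embryos, with a log2 fold change of 0.08 ± 0.08. The value was 0.04 without embryo 4 and 0.14 without embryo 2. Ttk and Bub1b had log2 fold changes of 0.03 and -0.05.

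For the 6 kinetochore and centromere genes the median log2 fold change was -0.14, with 2 above 0 and 4 below, and 1 of them was called lower. That gene was Cenpa (ENSMUSG00000029177, chr5:30666777-30674830, forward strand), the histone H3 variant that marks centromeres. It had 139.8, 122, 119, 117 and 135 CPM in control teeth and 85.2, 99.7, 122, 96.5 and 94.2 CPM in IGF1 teeth. It was lower with IGF1 in embryos 1, 2, 4 and 6, whereas in embryo 3 the IGF1 tooth was slightly higher, so that the groups overlapped. The means of 127 ± 10.1 and 99.6 ± 13.8 CPM (SD, n = 5) gave a log2 fold change of -0.34 ± 0.10, with a 95% interval from -0.56 to -0.13 and an adjusted p of 0.0474 in edgeR. This call was kept in 5 of 11 alternative fits, over which the adjusted p ran from 0.0115 without embryo 3 to 0.160 without embryo 6. It was lost without embryo 1 (0.144), without embryo 2 (0.0875) and without embryo 4 (0.106) as well as without embryo 6, and also without the embryo block (0.0681) and with no filter on low counts (0.0611). Cenpe, a motor that carries chromosomes to the spindle equator (chr3:135212537-135273611, forward strand), had 242, 315, 284, 273 and 327 CPM in control teeth and 219, 264, 295, 229 and 253 CPM in IGF1 teeth. It too was lower in 4 of 5 embryos, again with the exception of embryo 3, and its log2 fold change of -0.19 ± 0.07 was not called (adjusted p = 0.114, edgeR). The remaining 4 had log2 fold changes of -0.14 (Ndc80), -0.13 (Cenpf), 0.04 (Nuf2) and 0.11 (Spc25).

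For the 4 genes of regulated protein destruction, Cdc20, Ube2c, Pttg1 and Cdca3, 0 were called and the median log2 fold change was 0.03. Cdc20, the activator of the anaphase-promoting complex (chr4:118432901-118437352, reverse strand), had 80.0, 58.1, 63.4, 75.3 and 71.6 CPM in the control teeth and 63.4, 51.5, 60.8, 64.2 and 64.0 CPM in the IGF1 teeth. The IGF1 tooth was lower in 5 of 5 embryos, with overlapping groups, and the log2 fold change of -0.19 ± 0.07 had an adjusted p of 0.122 in edgeR. Cdc20 overlaps the gene Elovl1 in the annotation. Cdca3, a trigger of Wee1 destruction (chr6:124829547-124833701, forward strand), had 48.4, 44.4, 40.5, 45.7 and 42.1 CPM in control teeth and 48.1, 45.6, 47.1, 48.6 and 51.0 CPM in IGF1 teeth. Its log2 fold change was 0.13 ± 0.08, and it was 0.08 without embryo 6 and 0.15 without embryo 1. Ube2c, the ubiquitin-conjugating enzyme of the complex, had -0.04 ± 0.07. Pttg1, for securin, had the fewest counts and the widest interval of the 49 genes, with a log2 fold change of 0.10 ± 0.18.

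Among the 5 spindle kinesins 0 were called, and the median log2 fold change was 0.04. Kif2c, which takes tubulin off microtubule ends (chr4:117159639-117182639, reverse strand), had 71.8, 66.3, 65.6, 74.2 and 72.1 CPM in control teeth and 53.9, 56.7, 62.2, 62.4 and 73.8 CPM in IGF1 teeth. It was lower in 4 of 5 embryos and higher in embryo 6, with a log2 fold change of -0.18 ± 0.08 (adjusted p = 0.193, edgeR). Kif15, a motor that helps keep the spindle poles apart (chr9:122951046-123018733, forward strand), had 94.1, 109.7, 94.1, 93.5 and 115 CPM in control and 101, 119, 124, 94.996 and 117 CPM in IGF1 teeth. It was higher in 5 of 5 embryos, most in embryo 3, at 0.13 ± 0.08 in all and 0.06 without embryo 3. Kif11, Kif22 and Kif4 had log2 fold changes of 0.01, 0.04 and 0.04.

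All 5 spindle-associated proteins had fitted values below 0, and 0 were called. Their median was -0.08. Nusap1, which binds spindle microtubules near chromosomes (chr2:119618298-119651244, forward strand), had 91.7, 119, 99.8, 94.0 and 116 CPM in the control teeth and 85.5, 87.6, 102, 78.1 and 87.8 in the IGF1 teeth. It was lower with IGF1 in 4 of 5 embryos, embryo 3 being the exception, with a log2 fold change of -0.24 ± 0.08 and an adjusted p of 0.0973 in edgeR. Hmmr, a hyaluronan receptor that also acts in spindle assembly (chr11:40701395-40733422, reverse strand), had 106, 113, 100.2, 98.6 and 113 CPM in control and 93.9, 108, 113, 85.3 and 98.8 CPM in IGF1 teeth. Its log2 fold change was -0.09 ± 0.08, with the same single exception. It was -0.16 without embryo 3 and -0.06 without embryo 4. The values of Ckap2, Dlgap5 and Tpx2 were -0.08, -0.08 and -0.07.

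Among the 7 cytokinesis genes, 1 was called lower, and the median log2 fold change was 0.00. Kif23 (ENSMUSG00000032254, chr9:61915905-61946774, reverse strand) encodes the kinesin of the centralspindlin complex, which bundles the microtubules of the midzone. It had 129, 126, 125, 125 and 128 CPM in control teeth and 97.6, 105, 120.3, 98.4 and 112 CPM in IGF1 teeth. Every IGF1 tooth lay below every control tooth, as for 3.03% of all genes tested, and the tooth of embryo 3 came nearest to its partner. The control teeth were closely alike, at 127 ± 1.84 CPM (SD, n = 5), against 107 ± 9.65 CPM (SD, n = 5) with IGF1. The log2 fold change was -0.25 ± 0.07, with a 95% interval from -0.41 to -0.09, and the adjusted p of 0.0497 in edgeR lay just inside the threshold. This call was kept in 2 of 11 alternative fits, with adjusted p from 0.0297 without embryo 3 to 0.161 without embryo 4, and it was lost without embryos 1 (0.151), 2 (0.115) and 6 (0.105) and in DESeq2 (0.0716) and limma (0.0508). It was lost as well in edgeR without the embryo block (adjusted p = 0.0966), with no filter on low counts (0.0666) and with DESeq2 size factors (0.0525). Racgap1, the partner of Kif23 in centralspindlin, had a log2 fold change of 0.07 ± 0.08. Kif20b (chr19:34922361-34975745, forward strand), a kinesin of late cytokinesis, had 87.6, 139, 117, 117 and 138 CPM in control and 76.0, 117, 128, 101 and 113 CPM in IGF1 teeth. It was lower in 4 of 5 embryos and higher in embryo 3, at -0.16 ± 0.08 (adjusted p = 0.223, edgeR). Without embryo 3 the value was -0.24, and without embryo 6 it was -0.13. Ect2, Anln, Prc1 and Kif20a lay between -0.07 and 0.02.

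The 5 genes of chromosome structure all had fitted values above 0, with a median of 0.14, and 0 were called. Top2a, the topoisomerase that untangles replicated DNA (chr11:98992943-99024189, reverse strand), had 568, 679.9, 618, 622 and 731 CPM in control teeth and 596, 776, 809.7, 673 and 770.3 CPM in IGF1 teeth. The IGF1 tooth was higher in 5 of 5 embryos, most in embryo 3, with a log2 fold change of 0.17 ± 0.07 and an adjusted p of 0.151 in edgeR. Without embryo 3 the log2 fold change was 0.11. Smc2, a core subunit of condensin (chr4:52439243-52488260, forward strand), had 115, 173, 141, 133 and 160.1 CPM in control and 136, 171, 179.7, 148 and 177 CPM in IGF1 teeth. Its log2 fold change was 0.18 ± 0.07, with an adjusted p of 0.139 in edgeR. The condensin subunits Smc4 and Ncapg had values of 0.14 each. Mki67, which coats mitotic chromosomes and is the common marker of cycling cells (chr7:135689784-135716361, reverse strand), had 858, 1225, 1248, 1322 and 1471 CPM in control teeth and 1125, 1279, 1332, 1195 and 1396 CPM in IGF1 teeth. The control tooth of embryo 1 was the lowest, and the IGF1 tooth was higher in embryos 1, 2 and 3 and lower in embryos 4 and 6. The means of 1225 ± 227 and 1266 ± 107 CPM (SD, n = 5) gave a log2 fold change of 0.06 ± 0.08, which ran from -0.02 to 0.12 when each embryo was left out in turn.

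**Figure D3:**
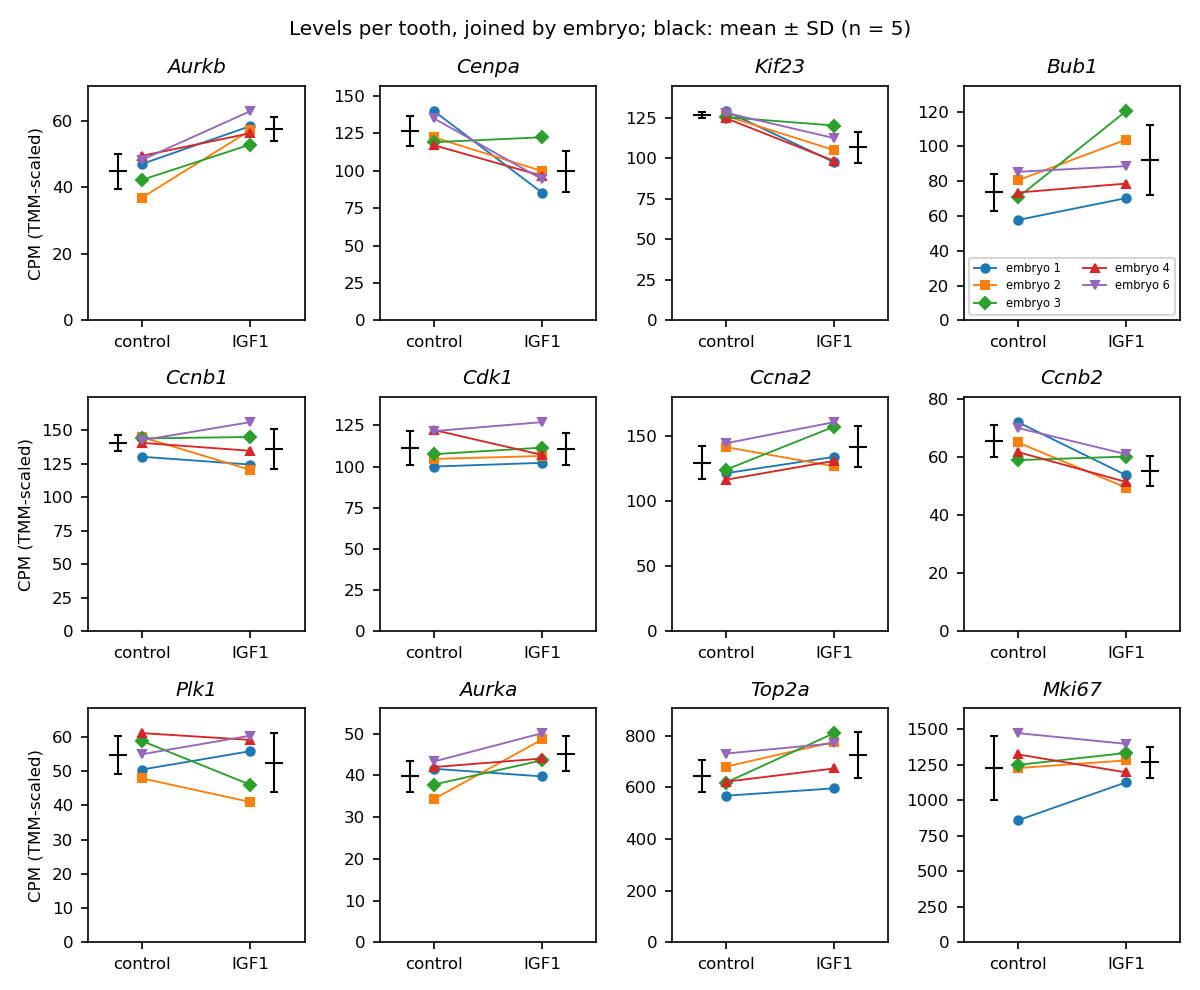
Levels (vertical axes, CPM scaled by TMM, from 0) of 12 mitosis and G2/M genes in each control and IGF1 tooth, with the teeth of an embryo joined by a line and the mean ± SD (n = 5) in black. The groups of Aurkb and Kif23 do not overlap, the IGF1 tooth of embryo 3 is the exception for Cenpa, and the lines of Cdk1, Ccnb1 and Mki67 run in both directions.

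Across the 49 genes, the IGF1 tooth was higher in all 5 embryos for 4 genes (Aurkb, Bub1, Kif15 and Top2a) and lower in all 5 for 3 genes (Bub1b, Cdc20 and Kif23). Over all genes tested, 13.0% were higher and 11.2% lower in all 5 embryos. The embryos differed in where the list stood. The median log2 ratio of the IGF1 tooth to the control tooth was -0.04, -0.01, 0.12, -0.09 and 0.01 in embryos 1, 2, 3, 4 and 6, with a mean of 0.00 ± 0.08 (SD, n = 5). The number of the 49 genes above 0 was 19, 23, 40, 16 and 25, whereas among all genes tested the share above 0 ran only from 48.9% to 51.9%. Embryo 3 had the highest median of the 5, which was not particular to these 49 genes. The medians of the further mitosis genes described below were 0.07, 0.05, 0.17, 0.04 and 0.08, also highest in embryo 3, and that of the S phase genes was lowest there. Without embryo 3, Ccnb2, Cenpe and Nusap1 were called lower as well as Cenpa and Kif23, and Aurkb higher, by the same edgeR test. Why embryo 3 differed was not tested.

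The other genes of the pathway were taken from a list of 125 further mitosis genes, made by function. Of these, 12 were called higher and 3 lower by edgeR, together 12%, which is near the 11.5% of all genes tested. Their median log2 fold change was 0.09, with quartiles of -0.04 and 0.20, and 84 were above 0 and 41 below. The IGF1 tooth was higher in all 5 embryos for 36 of the 125 and lower in all 5 for 8. Among all genes tested, 13.0% were higher and 11.2% lower in all 5. By role, 3 of 26 regulators, 2 of 31 kinetochore genes, 2 of 13 cytokinesis genes and 4 of 19 genes of chromosome structure were called, each of them higher. The anaphase-promoting complex and its partners had 1 of 14 called, which was lower, and the spindle genes had 1 of 22 called higher and 2 lower. Ncapg2, a subunit of condensin II, rose from 68.8 ± 7.74 to 107 ± 12.2 CPM (SD, n = 5), with a log2 fold change of 0.63 and an edgeR adjusted p of 0.000387. Mybl2, which encodes B-Myb, a factor that joins the MuvB complex to switch on late cell cycle genes, rose from 18.4 ± 2.48 to 32.3 ± 5.66 CPM (SD, n = 5; log2 fold change 0.80, edgeR adjusted p 0.000694). Foxm1, another activator of these genes, had a log2 fold change of 0.10 ± 0.09 and was not called (adjusted p = 0.524, edgeR). Numa1, which anchors spindle microtubules and is also present in interphase nuclei, fell from 664 ± 72.8 to 467 ± 40.1 CPM (SD, n = 5; log2 fold change -0.51, edgeR adjusted p 0.000730). The count of 15 calls was 6 without the embryo block, 9 without embryo 1 or embryo 6 and 7 without embryo 4.

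Genes of S phase, which comes before G2, were measured in the same libraries. Of 57 such genes, which encode helicase subunits, polymerases, nucleotide enzymes, cyclin E and E2F factors, 37 were called higher and 0 lower by edgeR (64.9%, against 11.5% of all genes tested). At an unadjusted p under 0.05 the number was 51 of 57 (against 26.5% of all genes tested), DESeq2 gave 32 calls and limma 37. The fit without the embryo block gave 23. Their median log2 fold change was 0.41, with quartiles of 0.29 and 0.56, and 56 of 57 were above 0. In each embryo their median log2 ratio was 0.46, 0.34, 0.26, 0.46 and 0.45, above that of the mitosis and G2/M genes. Rrm2, a subunit of ribonucleotide reductase, rose from 46.5 ± 4.97 to 84.3 ± 18.0 CPM (SD, n = 5), with a log2 fold change of 0.84 and an edgeR adjusted p of 0.000279. Cdc6, which loads the helicase, rose by 0.85 (edgeR adjusted p 0.000520), and Uhrf1, which maintains DNA methylation, by 0.74 (edgeR adjusted p 0.000540). The cyclin E genes Ccne1 and Ccne2 had log2 fold changes of 1.00 and 1.05, and Hells and Mcm6, whose promoters are shown above, of 0.51 and 0.30. The upper bound of the 95% interval was below the S phase median of 0.41 in 46 of the 49 mitosis and G2/M genes, and 32 of the 57 S phase genes lay above Aurkb, the highest of the 49. The difference between the lists is given as a description, because the lists were made with earlier results of these data known.

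**Figure D4:**
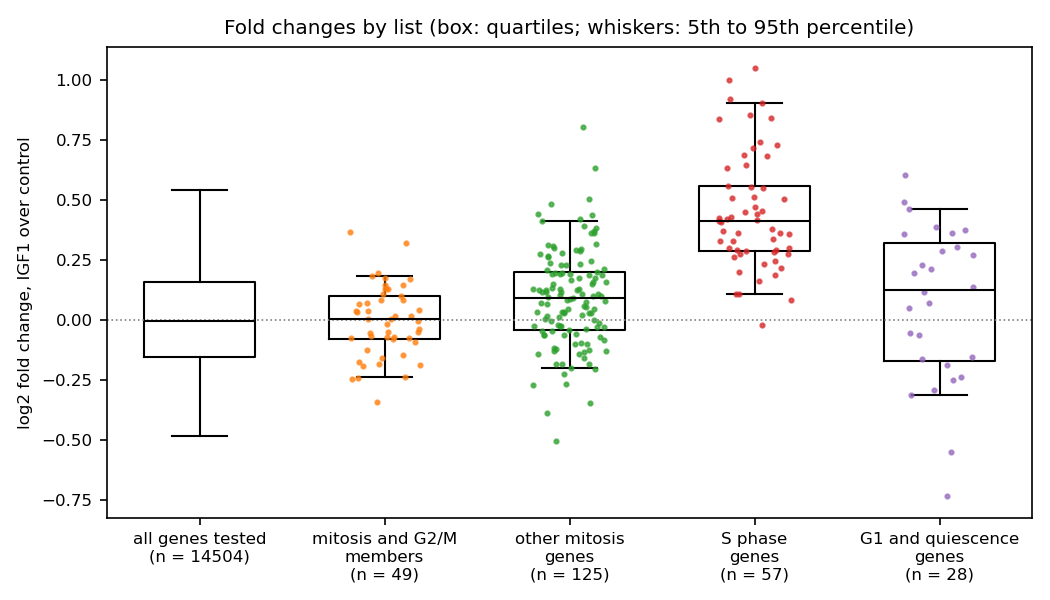
Log2 fold changes (vertical axis, IGF1 over control) of the genes tested and of the 49 mitosis and G2/M genes, 125 further mitosis genes, 57 S phase genes and 28 G1 and quiescence genes. Points are genes, boxes are quartiles with the median, and whiskers are the 5th and 95th percentiles. The median is 0.00 for the mitosis and G2/M genes and 0.41 for the S phase genes.

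Genes of G1 and quiescence moved in both directions, with 6 of 28 tested called higher and 3 lower by edgeR (32.1%, against 11.5% of all genes tested, of which 6.72% higher and 4.76% lower). Their median log2 fold change was 0.13. Cdkn1c, which encodes the Cdk inhibitor p57, rose by 0.49, from 227 ± 17.5 to 322 ± 58.6 CPM (SD, n = 5; edgeR adjusted p 0.00345). Ccnd2, for cyclin D2, rose by 0.39 (edgeR adjusted p 0.00405, but 0.120 without the embryo block), and Myc, a growth regulator, fell by 0.55 on the log2 scale (edgeR adjusted p 0.00389). The 9 calls became 2 without the embryo block, 5 without embryo 1 or embryo 4 and 4 without embryo 6.

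**Figure D5:**
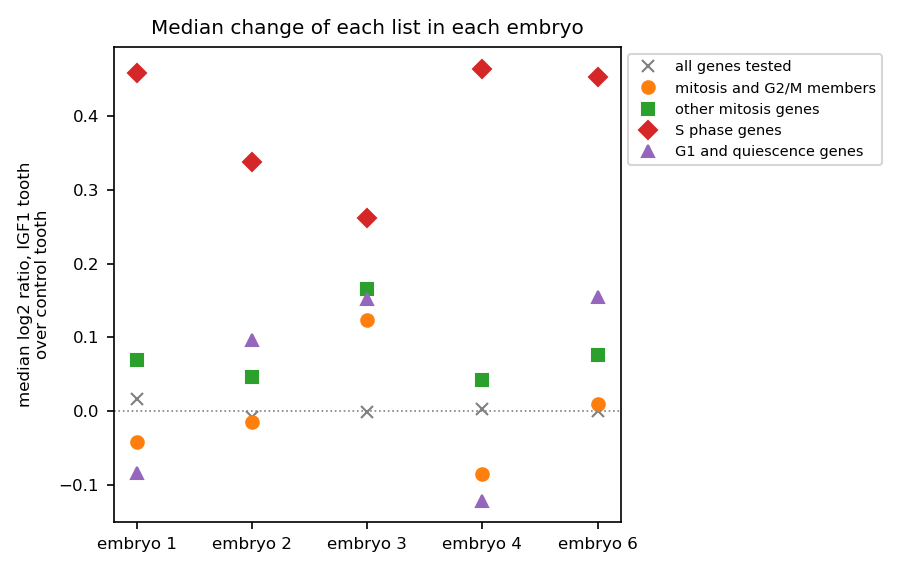
Median log2 ratio of the IGF1 tooth to the control tooth (vertical axis) in each of the 5 embryos, for the genes tested (crosses), mitosis and G2/M genes (circles), further mitosis genes (squares), S phase genes (diamonds) and G1 and quiescence genes (triangles). The S phase medians lie between 0.26 and 0.46, and those of the mitosis and G2/M genes between -0.09 and 0.12, with embryo 3 the highest.

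Several facts of the libraries stand beside these results. Total counts were 2845773 to 8403151 in control teeth and 3456634 to 8763113 in IGF1 teeth, and both teeth of embryo 1 had the lowest totals. Markers of dental epithelium and dental mesenchyme were detected in every tooth. Beside the counts of calls that follow, 6.72% of all genes tested were called higher and 4.76% lower. The summed level of 7 mesenchyme markers was 2990 to 3261 CPM in control teeth and 2389 to 2845 CPM in IGF1 teeth, lower with IGF1 in 5 of 5 embryos, with 1 of 7 called lower (Vim). That of 7 epithelium markers was 1431 to 2155 and 1681 to 2246 CPM, higher with IGF1 in 4 of 5 embryos, with Krt5 called higher and Shh lower. All 5 tested of 6 erythroid markers were called lower, from a sum of 842 to 1407 CPM in control teeth to 598 to 1101 CPM in IGF1 teeth, lower in 5 of 5 embryos. Of 5 endothelial markers 1 was called lower, with sums of 325 to 369 and 255 to 333 CPM, and of 4 macrophage markers tested 1 was called lower, with sums of 42.7 to 63.6 and 32.8 to 55.6 CPM. These endothelial and macrophage sums were also lower with IGF1 in 5 of 5 embryos. Muscle sums were 3.18 to 11.2 and 1.26 to 21.0 CPM with 0 of 1 tested called, and Myog and Myf5 had 0 counts in at least 1 tooth. All 11 tested genes of a hypoxia list were called higher, with a median log2 fold change of 1.69 and medians of 0.54, 2.74, 2.57, 1.11 and 1.13 in the embryos. The mitochondrial share was 2.17% to 3.28% in control and 2.05% to 2.51% in IGF1 teeth. The part of these shifts in the values of the mitosis and G2/M genes was not tested.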

How the data were processed

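The authors deposited a table of estimated counts per Ensembl gene from Salmon, with 1 column per tooth and no normalization. The submitters' processing notes name FastQC 0.11.8, Trimmomatic 0.39, Salmon 0.99.0, DESeq2 and GRCm38, while the transcript set, the use of strand and the filter on rows are not given in the sources used here. The counts were whole numbers with 0 exceptions, every gene had at least 10 counts in all, and 18287 of 18381 identifiers were matched to symbols in GENCODE M21. Of the mitosis and G2/M genes, 27 overlap another annotated gene, 11 a protein-coding gene, and 4 have a named pseudogene, so reads could be shared between them. Those that overlap a protein-coding gene are Ccna2, Cdc25b, Cdc25c, Cdca8, Cdc20, Ube2c, Kif4, Nusap1, Kif20a, Prc1 and Ncapg. Those with a named pseudogene are Ccnb1, Ccnb2, Kif4 and Kif22.

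Counts were tested with edgeR 4.0.16 in R 4.3.3, by the quasi-likelihood test after TMM scaling and edgeR's filter on low counts, with embryo as a block, and p-values were adjusted over 14504 genes. The pairing comes from the labels, by which equal embryo numbers mark teeth of the same animal. As a check, deviations of partner teeth from their group's mean had correlations across genes of 0.319 (embryo 1), 0.208 (embryo 2), -0.0389 (embryo 3), 0.170 (embryo 4) and 0.313 (embryo 6), against a median of -0.0463 for teeth of different embryos. The partner was the best match in embryos 1, 4 and 6 but not in embryos 2 and 3. Pairs of teeth within a group differed beyond sampling noise and were counted singly. SE and 95% intervals come from the quasi-likelihood fit. Ratios per embryo used a pseudocount of 0.5 CPM. Alternatives were DESeq2 1.42.0, limma 3.58.1, DESeq2 size factors, other count filters, the fit without the block and leaving out each embryo.

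The members and all lists were chosen with earlier results of these data known. Genes named with values per tooth are the called members, the 2 with the largest change in each role group, and Ccnb1, Cdk1, Ccna2, Plk1, Aurka, Aurkb, Top2a and Mki67. Of each comparison list, the 3 called genes with the smallest adjusted p are named. Foxm1, the cyclin E genes, Hells, Mcm6 and the further members were named after their values were seen. The result of 1 further marker list is not reported here.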

Additional observations from a re-analysis of the deposited data

Results flagged for a closer look

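In each group of 5 teeth, the gap between the highest or lowest tooth and its nearest neighbour was divided by the range of the group and set against Dixon's 95% critical value for 5 samples. Over the 98 groups of the 49 genes, 5 exceeded it, where chance alone gives 4.9. Ccnb1 was lowest in the control tooth of embryo 1, at 130.2 CPM against 141 to 145 in the others (ratio 0.711). Anln, a scaffold of the cleavage furrow, was also lowest in that tooth, at 134 against 149.6 to 155 CPM (0.743). Kif20a, a kinesin of the midzone, was lowest in the control tooth of embryo 2, at 115 against 133 to 137 CPM (0.816). Cdc20 was lowest in the IGF1 tooth of embryo 2, at 51.5 against 60.8 to 64.2 CPM (0.734). Cdc25c was highest in the IGF1 tooth of embryo 3, at 35.1 against 25.6 to 27.9 CPM (0.757).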

How the results depend on the processing

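The median log2 fold change of the mitosis and G2/M genes was 0.00 in the full fit and ran from -0.05 to 0.03 when embryos were left out, while which single genes passed the threshold depended on the fit. Without the replicate block, that is without the pairing of teeth by embryo, 1 member was higher and 0 were lower, and the calls were 887 in place of 1666 over all genes tested, 6 among further mitosis genes, 23 among S phase genes and 2 among G1 and quiescence genes. Members called lower were 1 with DESeq2 size factors, the DESeq2 Wald test and limma-voom, and 0 with no low-count filter; with at least 10 counts in every sample, 2 were higher. Leaving out each embryo in turn gave 0 to 1 members higher, 0 to 5 lower, 986 to 1602 calls over all genes, 7 to 15 among further mitosis genes, 25 to 38 among S phase genes and 4 to 10 among G1 and quiescence genes. Of 363 alternative values for 33 named genes, 338 kept their direction and side of the threshold, 18 lost and 4 gained a call, and 3 changed sign, each for a gene not called in either fit. These were Ccnb1 without embryo 2 (range over left-out embryos -0.100 to 0.0049), Cdk1 without embryo 4 (-0.026 to 0.0436) and Mki67 without embryo 1 (-0.0163 to 0.117). The causes were not tested. With 5 pairs of teeth, the median SE of the log2 fold change was 0.078 over the mitosis and G2/M genes. Fold changes as large as 0.32 (Bub1) and -0.24 (Ccnb2) on the log2 scale were not called. Changes of this size or smaller in a mitosis gene could therefore be missed.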
